A study of Homo sapiens with 6 samples.

Results

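A set of 9 genes of the basement membrane was followed after BNC2 knockdown, the laminin alpha chain genes LAMA2, LAMA3, LAMA4 and LAMA5, the beta chain genes LAMB1, LAMB2 and LAMB3, the gamma chain gene LAMC1, and NID1, which encodes nidogen 1. They were picked by name, and all 9 were found among the 23346 genes of the count table. BT549 is an established, mesenchymal-like human breast cancer cell line. Wild-type BT549 cells were transfected with 20 nM of either BNC2 siRNA, an equal mix of 3 siRNAs against the zinc finger protein basonuclin-2, or a non-targeting NC siRNA, and poly(A) RNA was sequenced from both groups at day 6. Each group held 3 libraries, described in the methods as biological replicates, and all 6 came from this 1 cell line. Levels are given as CPM, the counts of a gene scaled to the size of its library with TMM factors, and a gene was called when edgeR's quasi-likelihood test gave a Benjamini-Hochberg adjusted p of at most 0.05 over the 12186 genes that passed a filter on low counts.

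Laminins are large secreted proteins built from 1 alpha, 1 beta and 1 gamma chain, which wind around each other. Many of them, though not all, are cross-shaped and polymerise into a sheet on the cell surface. Nidogens bind the gamma chain and link this sheet to the type IV collagen network, and integrins and dystroglycan anchor it to the cell. The chains differ between tissues: LAMA2 is typical of muscle and peripheral nerve, LAMA4 of vessels and mesenchyme, LAMA5 is widespread, and the chain of LAMA3 pairs with that of LAMB3 in the laminin beneath the epidermis.

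The siRNAs are shown because they are the reagents that set the groups apart. Their antisense strands, 5′ to 3′ with the seed (bases 2 to 8) in capitals, are as follows.
BNC2 siRNA (1): uUUACACUgaucacaagucct
BNC2 siRNA (2): uUGUCAUAgaaugucuucctt
BNC2 siRNA (3): uUUCGGCUucguacagaggtt
NC siRNA: aCGUGACAcguucggagaatt
The 19-base core of these siRNAs matched 12, 6, 7 and 0 of the 16 annotated BNC2 transcripts, respectively. It matched none of the 142 annotated transcripts of the 9 genes, in which the longest run of paired bases was 11, 11, 10 and 8 bases. Shorter seed matches were not counted.

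The promoters of the pair of beta chain genes that moved in opposite directions, and of LAMA3 and LAMB3, whose chains share a laminin, are shown to give the sequence context of their starts. Each run holds 250 bases before and 50 after a transcript start in RefSeq (table of GRCh38.p14), was found once in GRCh37, and is written 5′ to 3′ on the gene's strand. Capitals mark letters matching a GC box, TATA box, CCAAT box, AP-1 site or TEAD site on either strand, spelled out after the sequences.
LAMB1 promoter, GRCh37 chr7:107643557-107643856, minus strand: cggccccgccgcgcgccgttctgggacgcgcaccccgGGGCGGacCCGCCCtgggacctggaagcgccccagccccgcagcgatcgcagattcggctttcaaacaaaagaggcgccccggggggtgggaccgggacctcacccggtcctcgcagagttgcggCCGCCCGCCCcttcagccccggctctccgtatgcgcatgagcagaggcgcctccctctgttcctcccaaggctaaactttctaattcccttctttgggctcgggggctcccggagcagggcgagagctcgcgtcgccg
LAMB2 promoter, GRCh37 chr3:49170434-49170733, minus strand: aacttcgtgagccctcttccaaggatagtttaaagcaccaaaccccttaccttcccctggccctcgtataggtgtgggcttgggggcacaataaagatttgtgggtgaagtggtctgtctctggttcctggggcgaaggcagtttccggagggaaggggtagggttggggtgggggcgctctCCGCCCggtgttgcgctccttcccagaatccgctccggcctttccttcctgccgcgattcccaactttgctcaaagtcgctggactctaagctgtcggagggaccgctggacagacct
LAMA3 promoter, that of its short transcript, GRCh37 chr18:21452734-21453033, plus strand: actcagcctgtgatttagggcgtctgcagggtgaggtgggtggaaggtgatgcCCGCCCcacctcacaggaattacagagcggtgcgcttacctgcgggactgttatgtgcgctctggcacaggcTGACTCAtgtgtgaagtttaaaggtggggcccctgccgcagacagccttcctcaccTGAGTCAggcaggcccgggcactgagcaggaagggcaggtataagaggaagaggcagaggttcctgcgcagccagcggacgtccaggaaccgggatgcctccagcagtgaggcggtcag
LAMB3 promoter, the third of its 3 listed starts, GRCh37 chr1:209824670-209824969, minus strand: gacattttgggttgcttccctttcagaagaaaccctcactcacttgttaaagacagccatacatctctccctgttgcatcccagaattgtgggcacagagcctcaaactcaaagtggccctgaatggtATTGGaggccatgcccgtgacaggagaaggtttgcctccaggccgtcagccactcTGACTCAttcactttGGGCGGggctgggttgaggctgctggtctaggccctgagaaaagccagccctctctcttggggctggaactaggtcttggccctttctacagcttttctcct

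The LAMB1 promoter held 4 GC boxes (GGGCGG on either strand), some overlapping, and a GC content of 71.0%, whereas that of LAMB2 held 1 GC box and a GC content of 58.67%, the median of all 35116 promoters. An AP-1 match (TGANTCA) was present in 7.709% of all promoters. Among the 9 genes it occurred at the start of the short LAMA3 transcript, with 2 matches, and at LAMB3, with 1 match at the third start. This start is shown because it holds the match, and the other 2 LAMB3 promoters held no AP-1 or CCAAT match. GC boxes, found in 44.95% of all promoters, were present at each gene other than LAMA2 and LAMA4, with 5 at LAMA5 and 3 at LAMC1. LAMA2 held a single TEAD match (GGAATG, in 14.03% of all promoters) and LAMA4 none of the motifs searched. CCAAT boxes (letters as in the name, in 34.61% of all promoters) occurred at NID1 and at the third start of LAMB3, and TATA boxes (TATAAA, in 11.53%) at none. For LAMA3 only the start of its short transcript was listed and searched, not that of its long transcript. A match describes letters and not binding.

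BNC2 itself was at 65.6, 51.5 and 58.6 CPM with NC siRNA and at 35.5, 36.6 and 41.6 CPM with BNC2 siRNA. The groups did not overlap, and 64.6% of the control level remained (log2 fold change -0.63 ± 0.09 SE, adjusted p = 8.2e-06). The libraries held 16093978 to 18246254 counts. Mesenchymal markers marked the cells as labelled. VIM, FN1, CDH2, ZEB1 and SNAI2 summed to 4079 to 4168 CPM with NC siRNA and 4954 to 5192 CPM with BNC2 siRNA. All 5 were called as up-regulated, where 72.9% of all genes tested were called and 36.6% were called up. Nothing particular to these markers is read from that count. Of 5 epithelial markers none passed the filter, EPCAM and ESRP1 had 0 counts in every library, and the summed level was 0.361 to 0.507 CPM with NC siRNA and 0 to 0.0582 CPM with BNC2 siRNA. Of 5 endothelial markers none passed the filter (0.732 to 1.51 and 0.191 to 1.11 CPM), and CDH5 was at 0. Immune markers summed to 1.90 to 2.31 and 0.872 to 1.02 CPM, and Schwann cell or muscle markers to 1.75 to 2.59 and 0.127 to 0.451 CPM with MYOD1 at 0. In each of these last 2 lists 1 marker passed the filter, only through the controls, and was called as down-regulated. Of all genes tested, 36.2% were called down. In bulk RNA, fewer cells that express a gene and less RNA of it per cell cannot be told apart.

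All 9 genes passed the filter. Of them, 6 were up-regulated (LAMA2, LAMA4, LAMA5, LAMB2, LAMB3 and NID1), 2 were down-regulated (LAMA3 and LAMB1) and LAMC1 was not called. These counts stand against a background in which 72.9% of all genes tested were called, with 36.6% up and 36.2% down. In each of the 9 genes the groups were separate, with no library of one among those of the other, which was also the case for 74.9% of all genes tested. Their median log2 fold change was 0.56, beside 0.0014 for all genes tested. Within each class of chain that has several members here, some genes rose and another fell.

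**Figure D1:**
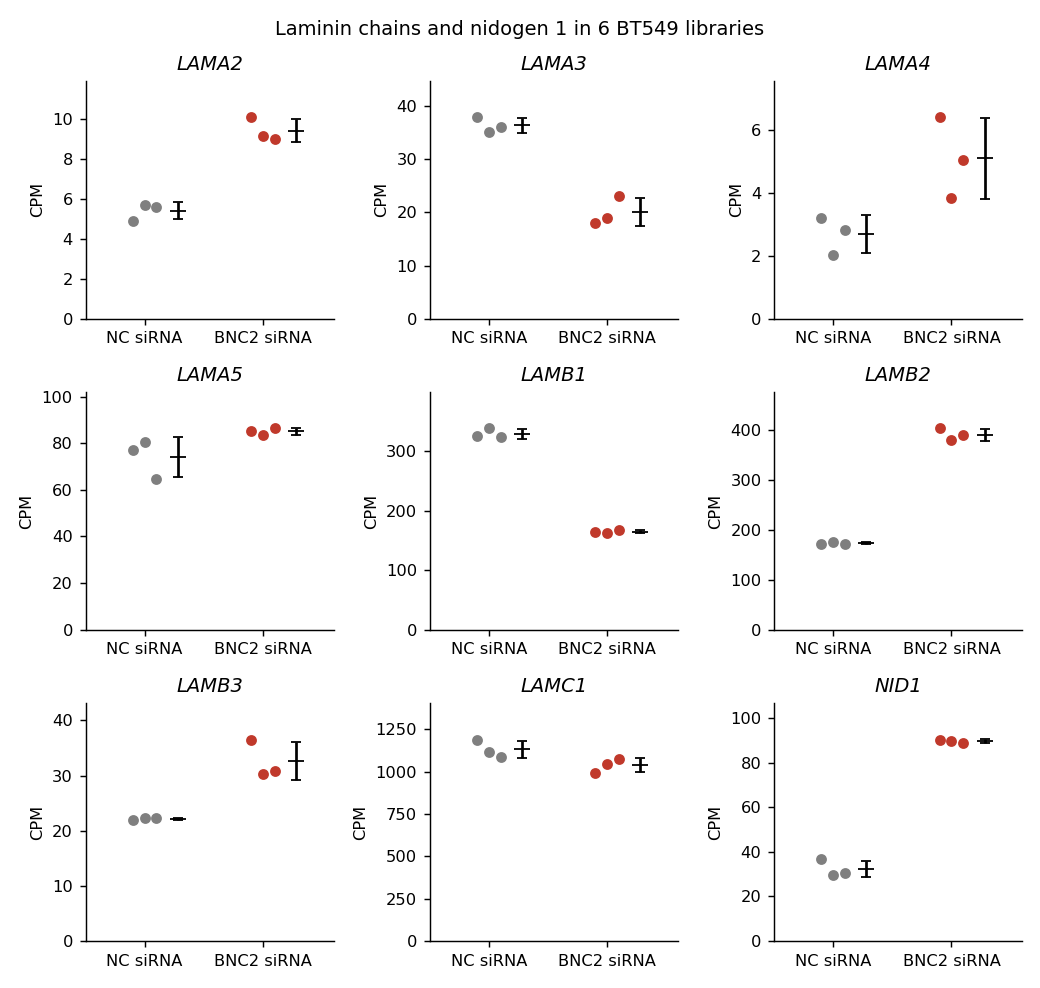
Level of each of the 9 genes in every library (CPM after TMM scaling; points are libraries, the lines beside them are the mean ± SD of 3, and each panel has its own scale from 0). In every panel the NC siRNA and BNC2 siRNA points are separate, with the widest gaps at NID1, LAMB2 and LAMB1 and the narrowest at LAMA5 and LAMC1.

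Among the alpha chains, LAMA3 fell while the other members rose. LAMA3, on chromosome 18 (21269417 to 21536186, GRCh37, plus strand, 75 exons in its canonical transcript), was at 37.9, 35.2 and 36.1 CPM with NC siRNA and at 18.1, 19.0 and 23.0 CPM with BNC2 siRNA. The third BNC2 siRNA library was the highest of its group but stayed below every control. The log2 fold change was -0.86 ± 0.09 (SE, adjusted p = 3.2e-07), so 55.0% of the control level remained. The gene has a long transcript of 10651 bases and a short principal transcript of 5618 bases that starts at 21452984, inside the gene, and counts per gene do not tell them apart.

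LAMA5, on chromosome 20 (60883011 to 60942368, minus strand), gave the most reads of the alpha chains. It was at 76.9, 80.6 and 64.5 CPM with NC siRNA and at 85.1, 83.6 and 86.3 CPM with BNC2 siRNA. The lowest value, that of the third NC siRNA library, stood apart from the other controls, and the BNC2 siRNA libraries lay close together above all 3. The difference was small (log2 fold change 0.20 ± 0.08 SE, adjusted p = 0.025), and 75.2% of the genes tested changed by more. It rested on single libraries: leaving out the third NC siRNA library gave 0.09 (adjusted p = 0.263), leaving out the third BNC2 siRNA library gave 0.19 (adjusted p = 0.0683), and with scaling by total counts only gave 0.12 (adjusted p = 0.174).

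LAMA2 and LAMA4, the alpha chains best known from muscle and mesenchyme, rose from low levels. LAMA2, on chromosome 6 (129204283 to 129837711, plus strand), was at 4.90, 5.66 and 5.60 CPM with NC siRNA and at 10.1, 9.14 and 8.98 CPM with BNC2 siRNA. These values came from 87, 101 and 93 counts and from 173, 162 and 141 counts, and the log2 fold change was 0.80 ± 0.13 (SE, adjusted p = 3.3e-05). LAMA4, on the same chromosome (112429134 to 112576141, minus strand), was at 3.21, 2.02 and 2.83 CPM with NC siRNA and at 6.40, 3.84 and 5.03 CPM with BNC2 siRNA. The spread of LAMA4 was the widest of the 9 genes, with a coefficient of variation of 22.7% in the controls and 25.2% after knockdown, at 36 to 110 counts per library. Its log2 fold change was 0.92 ± 0.22 (SE, adjusted p = 0.00119). The 95% interval ran from 0.46 to 1.38 for LAMA4 and from 0.53 to 1.08 for LAMA2, so the size of these rises cannot be ranked.

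Among the beta chains, LAMB1 fell while LAMB2 and LAMB3 rose. LAMB1, on chromosome 7 (107564244 to 107643658, minus strand), encodes the beta chain found in most basement membranes, and was at 324.5, 338 and 322.7 CPM with NC siRNA and at 163.7, 162.6 and 166.9 CPM with BNC2 siRNA. In each group the libraries lay close together, and the level was 50.1% of the control (log2 fold change -0.998 ± 0.05 SE, adjusted p = 5.9e-11). LAMB2, on chromosome 3 (49158547 to 49170551, minus strand), encodes the beta chain of the neuromuscular junction and the kidney filter. It was at 172.6, 174.9 and 172.1 CPM with NC siRNA and at 403, 379.7 and 388.8 CPM with BNC2 siRNA, a 2.25-fold rise (log2 fold change 1.17 ± 0.05 SE, adjusted p = 8.8e-12). Expressed as reads of LAMB2 per read of LAMB1 in the same library, the ratio was 0.532, 0.518 and 0.533 with NC siRNA and 2.46, 2.34 and 2.33 with BNC2 siRNA. LAMB1 thus had more reads in each control and LAMB2 in each knockdown library, a 4.50-fold change of the ratio that needs no scaling between libraries.

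LAMB3, on chromosome 1 (209788215 to 209825770, minus strand), encodes the beta chain that pairs with that of LAMA3. It was at 21.9, 22.2 and 22.3 CPM with NC siRNA and at 36.5, 30.3 and 30.9 CPM with BNC2 siRNA. The first BNC2 siRNA library was the highest, and the log2 fold change was 0.56 ± 0.09 (SE, adjusted p = 2.7e-05). The partners therefore moved apart: the ratio of LAMB3 to LAMA3 reads was 0.578, 0.631 and 0.618 with NC siRNA and 2.02, 1.59 and 1.34 with BNC2 siRNA.

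LAMC1, on chromosome 1 (182992555 to 183114727, plus strand), encodes the gamma chain shared by most laminins, and had the most reads of the 9 genes. It was at 1190, 1116 and 1088 CPM with NC siRNA and at 994, 1043 and 1075 CPM with BNC2 siRNA. The third library of each group came within a small distance of the other group without crossing it. The log2 fold change was -0.12 ± 0.06 (SE, adjusted p = 0.0568), with an unadjusted 95% interval from -0.24 to -0.01, and 84.0% of the genes tested changed by more. LAMC1 passed the threshold in 5 of the 14 alternatives, among them DESeq2 (-0.13, adjusted p = 0.0412), DESeq2's size factors (-0.13, adjusted p = 0.0457) and scaling by total counts only (-0.20, adjusted p = 0.00469). It also passed without the third NC siRNA library (-0.17, adjusted p = 0.0194) and without the third BNC2 siRNA library (-0.15, adjusted p = 0.0496). LAMC3, another gamma chain gene, rose from 2.59 ± 0.638 to 4.73 ± 0.488 CPM (SD, n = 3 each) (log2 fold change 0.87 ± 0.20 SE, adjusted p = 8.2e-04).

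NID1 rose most of the 9 genes. The gene lies on chromosome 1 (236139130 to 236228409, minus strand) and encodes the linker between laminin and type IV collagen. It was at 36.6, 29.6 and 30.6 CPM with NC siRNA and at 90.3, 89.9 and 88.9 CPM with BNC2 siRNA. The control values spread more than those after knockdown, and the lowest knockdown value was well above the highest control. The rise was 2.78-fold (log2 fold change 1.48 ± 0.08 SE, adjusted p = 4.9e-11), and 8.36% of the genes tested changed by more. Per read of LAMC1, whose chain nidogen binds, NID1 had 0.0307, 0.0265 and 0.0281 reads with NC siRNA and 0.0909, 0.0861 and 0.0827 reads with BNC2 siRNA. NID2, its paralogue, rose more steeply (log2 fold change 2.44), and the ratio of NID2 to NID1 reads went from 0.818, 0.828 and 0.921 to 1.62, 1.69 and 1.70. Of 5 ratios computed for this comparison, chosen after the values were seen, LAMA5 to LAMA3 was the other one (2.03, 2.29 and 1.79 with NC siRNA, 4.71, 4.40 and 3.75 with BNC2 siRNA). No ratio overlapped between the groups. An exact two-sided permutation test gave p = 0.1 for each, the smallest that 3 against 3 libraries allow. As the ratios were picked from values already seen, neither result is an independent test of them.

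**Figure D2:**
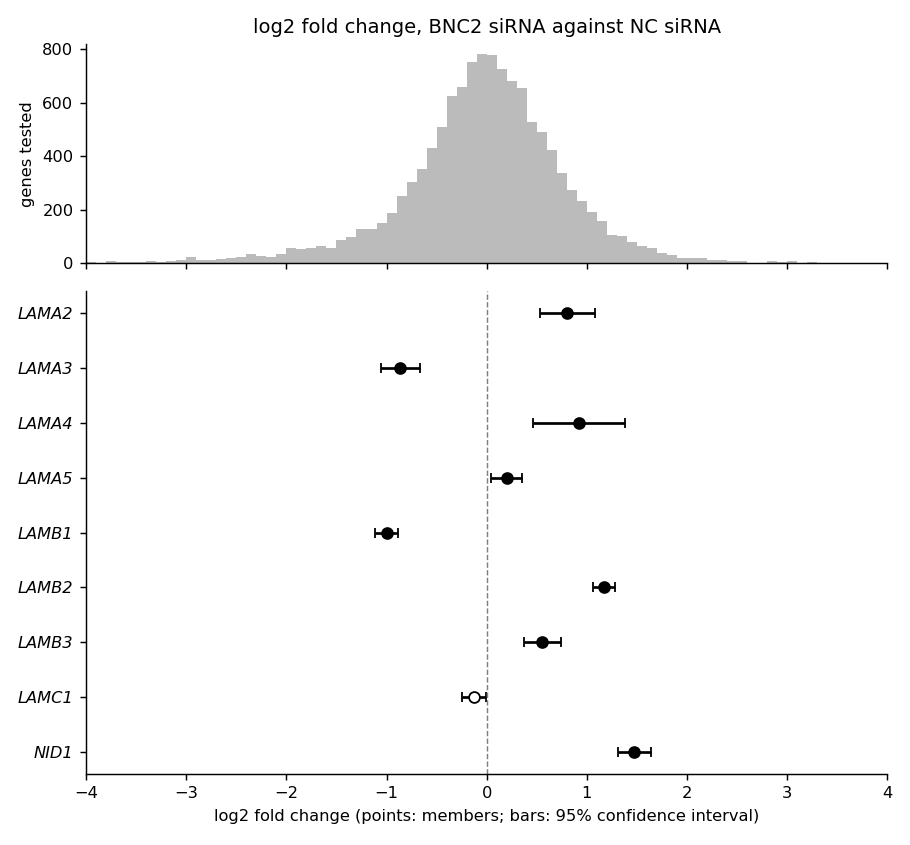
Log2 fold change of each gene, BNC2 siRNA against NC siRNA, with its 95% interval (filled if called, open if not), below the distribution of all genes tested over the same axis. NID1 and LAMB2 lie farthest to the right and LAMB1 and LAMA3 farthest to the left, and the axis leaves out 62 genes tested that changed by more than 4 on the log2 scale.

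Levels of different genes were compared per length, as CPM per kb of exon. With all annotated exons of a gene, the order in the controls was LAMC1 (134 ± 6.23, SD, n = 3), LAMB2 (25.2 ± 0.221), LAMB1 (17.7 ± 0.448), NID1 (5.55 ± 0.650), LAMA5 (5.18 ± 0.589), LAMB3 (4.76 ± 0.0429), LAMA3 (2.51 ± 0.0946), LAMA4 (0.224 ± 0.0509) and LAMA2 (0.204 ± 0.0159). On this length the libraries of LAMA5 overlapped those of NID1 and of LAMB3, which did not overlap each other, and those of LAMA4 and LAMA2 overlapped. After knockdown, on the same length, NID1 (15.4 ± 0.127) stood above LAMB1 (8.84 ± 0.122), LAMB3 (7.01 ± 0.740) and LAMA5 (5.95 ± 0.0957), none of which overlapped each other. LAMA4 (0.425 ± 0.107) and LAMA2 (0.356 ± 0.0221) still overlapped.

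The order of several genes depended on the length used, among them LAMB1 and LAMB2. Annotated exons of LAMB1 cover 18592 bases, 3.29 times its canonical transcript of 5650 bases, whereas those of LAMB2 cover 6865 bases, 1.21 times its canonical transcript of 5692 bases. Per kb of canonical transcript, a length chosen after the data were seen, LAMB1 was at 58.1 ± 1.47 and LAMB2 at 30.4 ± 0.266 with NC siRNA, and at 29.1 ± 0.401 and 68.6 ± 2.06 with BNC2 siRNA (SD, n = 3). LAMB2 was thus already above LAMB1 in the controls on the first length and changed places with it on the second. The canonical lengths of the pair are nearly equal, so the second order is that of the reads, with more for LAMB1 in each control. The first order rests on the larger number of annotated exon bases of LAMB1. On canonical transcripts NID1 (15.5 ± 0.127) lay below LAMB1 after knockdown, and the libraries of LAMB3 (8.11 ± 0.857) and LAMA5 (7.44 ± 0.120) overlapped (SD, n = 3). Annotated exons of LAMA2 cover 2.72 times its canonical transcript and those of LAMA4 1.66 times. On canonical transcripts LAMA2 lay above LAMA4 without overlap, at 0.555 ± 0.0434 against 0.372 ± 0.0844 with NC siRNA and at 0.969 ± 0.0603 against 0.704 ± 0.177 with BNC2 siRNA (SD, n = 3). On both lengths the gamma chain was above the summed beta chains and these above the summed alpha chains. The summed alpha chains were at 8.12 ± 0.578 with NC siRNA and 8.11 ± 0.282 with BNC2 siRNA on all exons (SD, n = 3), and the summed beta chains at 47.7 ± 0.682 and 72.7 ± 2.43. On canonical transcripts the summed beta chains were at 94.1 ± 1.76 and 105.8 ± 2.93 (SD, n = 3), so the size of their rise depended on the length too.

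Within the summed alpha chains, on all exons, the share of LAMA3 went from 31.0% ± 2.32 to 17.0% ± 1.81 (SD, n = 3) and that of LAMA5 from 63.7% ± 3.06 to 73.4% ± 1.37 (SD, n = 3). LAMA2 went from 2.52% ± 0.325 to 4.39% ± 0.321 and LAMA4 from 2.78% ± 0.680 to 5.22% ± 1.26 (SD, n = 3). On canonical transcripts LAMA3 went from 31.7% ± 2.19 to 17.1% ± 1.88 and LAMA5 from 59.7% ± 3.19 to 67.7% ± 1.33 (SD, n = 3). LAMA2 went from 5.16% ± 0.640 to 8.82% ± 0.610 and LAMA4 from 3.45% ± 0.836 to 6.38% ± 1.503 on this length, so LAMA2 had the larger share of the pair here and the smaller mean share on all exons (SD, n = 3). Where the short LAMA3 transcript was used instead, the shares of LAMA3 and LAMA5 in the controls were close to each other (46.7% ± 2.52 and 46.6% ± 3.20, SD, n = 3), and after knockdown they were 28.1% ± 2.68 and 58.7% ± 1.65 (SD, n = 3). Shares of a sum depend on each other, so a fall of LAMA3 by itself raises the share of LAMA5. The level of LAMA5 on all exons went from 5.18 ± 0.589 to 5.95 ± 0.0957 CPM per kb (SD, n = 3).

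Within the summed beta chains, LAMB2 went from 52.9% ± 0.301 to 78.2% ± 0.279 and LAMB1 from 37.1% ± 0.408 to 12.2% ± 0.421 on all exons (SD, n = 3). On canonical transcripts LAMB2 went from 32.4% ± 0.320 to 64.8% ± 0.175 and LAMB1 from 61.8% ± 0.411 to 27.5% ± 0.783 (SD, n = 3). LAMB3 kept a minor share, 10.0% ± 0.140 and 9.62% ± 0.700 on all exons, where the libraries overlapped (SD, n = 3). On canonical transcripts its share was 5.86% ± 0.104 and 7.66% ± 0.607 without overlap (SD, n = 3). The exact two-sided permutation test gave the smallest p possible, p = 0.1, for each share other than that of LAMB3 on all exons (p = 0.4).

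**Figure D3:**
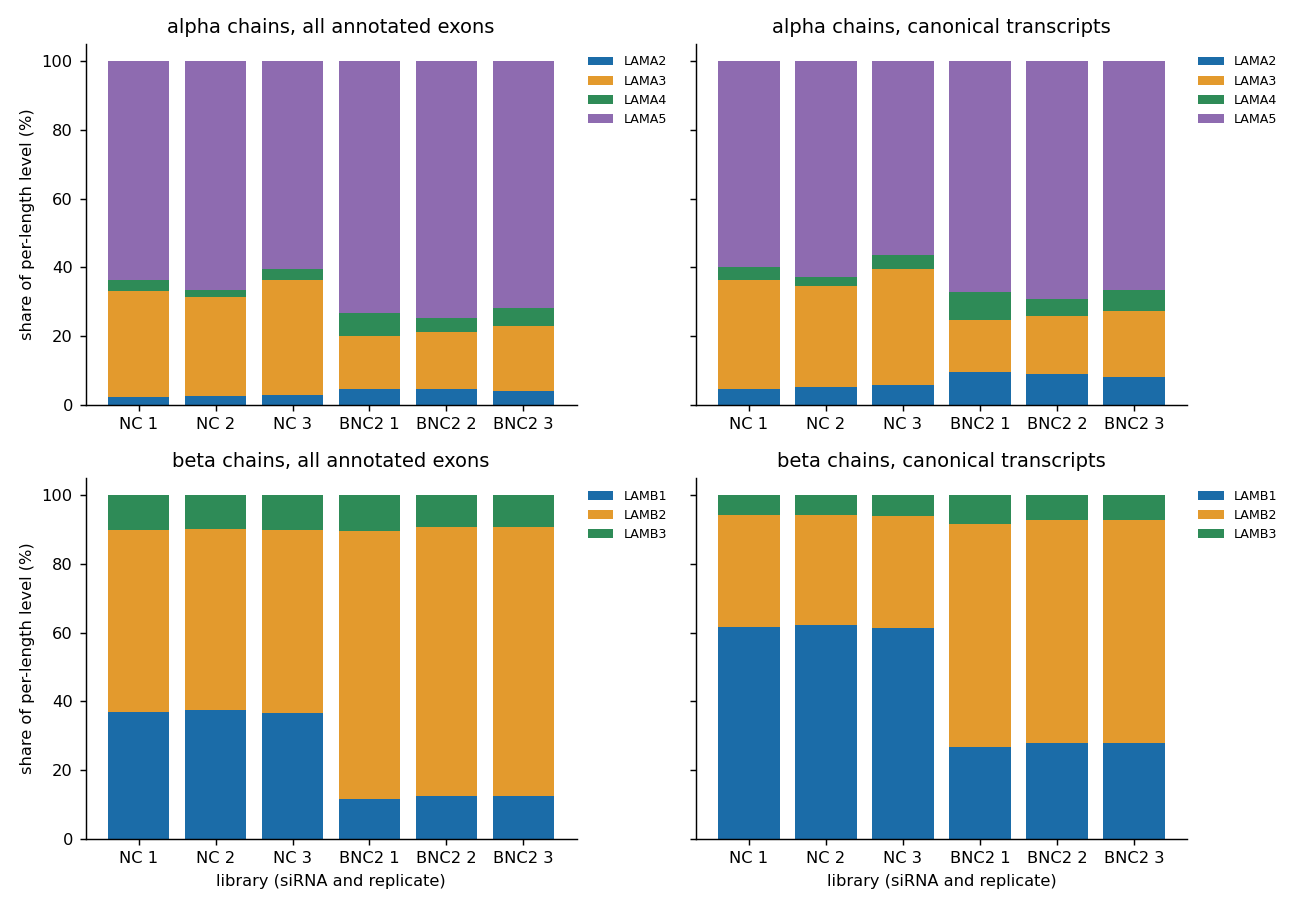
Share (%) of each gene in the summed per-length level of the alpha chains (top) and the beta chains (bottom) in every library, with all annotated exons (left) or the canonical transcript (right) as length. In the BNC2 siRNA libraries the LAMA3 and LAMB1 bands are narrower and the LAMA5 and LAMB2 bands wider on both lengths, while LAMB1 is the widest beta band of the controls only on the right.

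The direction of each gene was kept in all 14 alternatives to the test, scaling, filter, strand and libraries. The log2 fold change lay between 1.40 and 1.56 for NID1, 1.10 and 1.20 for LAMB2, 0.72 and 1.10 for LAMA4, 0.66 and 0.83 for LAMA2 and 0.47 and 0.61 for LAMB3. It lay between -1.07 and -0.97 for LAMB1, -0.97 and -0.79 for LAMA3 and -0.20 and -0.09 for LAMC1, and between 0.09 and 0.25 for LAMA5. The calls of LAMA5 and LAMC1 were the only ones of the 9 to change in these alternatives.

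**Figure D4:**
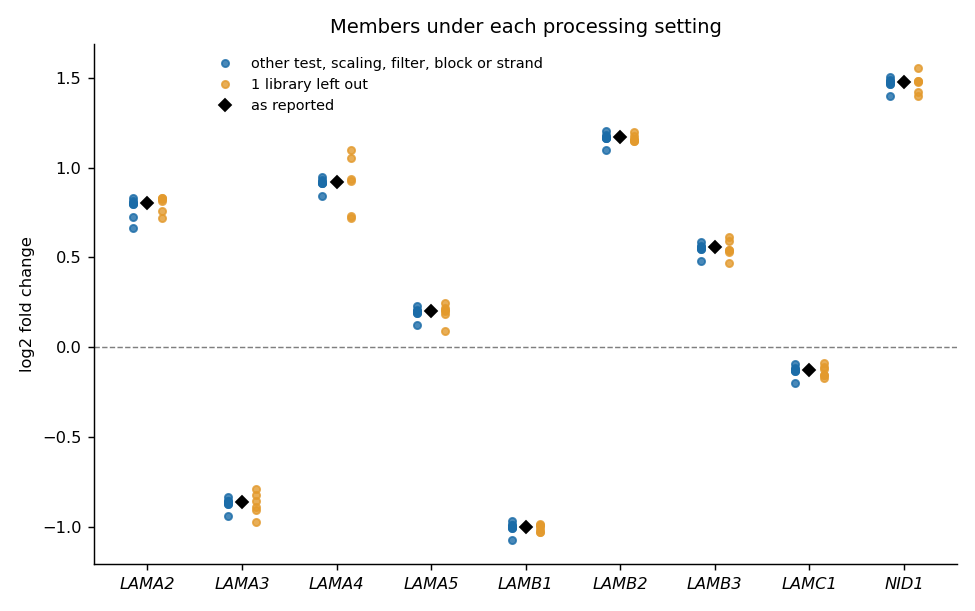
Log2 fold change of each gene in the main analysis and in each of the 14 alternatives (diamonds as reported, points to the right with 1 library left out, points to the left the others). No point lies on the other side of zero from the reported value, LAMA4 has the widest range, and LAMA5 and LAMC1 lie closest to zero.

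The genes around laminin moved both ways as well. The counts in each list below stand against the same background of 72.9% of all genes tested called (36.6% up, 36.2% down) and a median log2 fold change of 0.0014, and nothing particular to a list is read from them. Among further laminin chain and nidogen genes, LAMC3 and NID2 were up-regulated as given above, LAMA1 had at most 1 count in any library and LAMB4 had 0 counts. Of 24 other basement membrane components, 15 were tested, of which 9 were up-regulated, 4 down-regulated and 2 not called (13 of 15 called, against 72.9%, with a median log2 fold change of 0.58). COL18A1, the source of endostatin, rose most of the 15 tested, from 29.3 ± 2.78 to 97.4 ± 2.81 CPM (SD, n = 3 each). Its log2 fold change was 1.73 (adjusted p = 4.2e-12). COL15A1 did not pass the filter and has no call. It had 2, 7 and 4 counts with NC siRNA and 15, 27 and 17 with BNC2 siRNA, without overlap between the groups. COL4A1, a chain of the type IV collagen that nidogen binds, rose by 1.54, HMCN1 (hemicentin 1) by 1.23 and COL7A1, the collagen of anchoring fibrils, by 1.08 on the log2 scale. The 4 that fell were HSPG2 (perlecan, log2 fold change -0.90), FRAS1 (-0.91), SPARC (-0.52) and FBLN1 (-0.28). Of these only FBLN1 overlapped between the groups, at 20.6, 24.3 and 25.6 CPM with NC siRNA and 21.1, 16.7 and 20.4 CPM with BNC2 siRNA.

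Of 11 laminin receptor genes, 7 were tested, with 4 up-regulated, 2 down-regulated and 1 not called (6 of 7 called, against 72.9%, with a median log2 fold change of 0.37). ITGA6, the alpha subunit of the main laminin-binding integrins, rose from 266 ± 21.9 to 571 ± 39.5 CPM (SD, n = 3 each), a log2 fold change of 1.10 (adjusted p = 3.5e-10). DAG1 (dystroglycan) rose by 0.68, RPSA by 0.58 and ITGA3 by 0.37 on the log2 scale. ITGB1, the beta subunit that partners these integrins, fell by 0.49 and BCAM, a receptor of the LAMA5 chain, fell by 0.50 on the log2 scale. The other 4 receptor genes did not pass the filter and have no call. Of these, ITGA7 had 17, 31 and 29 counts with NC siRNA and 5, 4 and 5 with BNC2 siRNA, and ITGA2 had 24, 16 and 24 counts with NC siRNA and 2, 9 and 3 with BNC2 siRNA, each without overlap between the groups. ITGA1 and ITGB4, whose product pairs with that of ITGA6 in hemidesmosomes, overlapped between the groups at lower counts.

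Dystroglycan binds laminin through a sugar chain that a series of enzymes builds. Of 14 such genes, 13 were matched in the table and tested, with 7 up-regulated, 2 down-regulated and 4 not called (9 of 13 called, against 72.9%, with a median log2 fold change of 0.25). Those past 1 on the log2 scale were GYLTL1B (now LARGE2, 2.09), SGK196 (now POMK, the kinase of this chain, 1.32) and TMEM5 (now RXYLT1, -1.13). The other down-regulated gene was B3GNT1 (now B4GAT1, -0.82). GYLTL1B had 4, 12 and 5 counts with NC siRNA, under 1 CPM in each control, and passed the filter only through the BNC2 siRNA libraries, where it was at 2.33, 1.35 and 1.53 CPM, so its size is uncertain and its place among the 7 is not independent of the filter. Of 5 proteases that process laminin chains, 4 were tested, with TLL1 (log2 fold change 1.32) and MMP14 (0.22) up-regulated and BMP1 (-0.32) and CTSS down-regulated (4 of 4 called, against 72.9%). CTSS had 72, 88 and 66 counts with NC siRNA and 1, 0 and 1 with BNC2 siRNA, so that it passed the filter only through the controls and was at least 24.2-fold lower when set against a floor of 3 counts per library. MMP2 did not pass the filter and has no call. It had 10, 12 and 9 counts with NC siRNA and 3, 3 and 1 with BNC2 siRNA, without overlap between the groups.

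**Figure D5:**
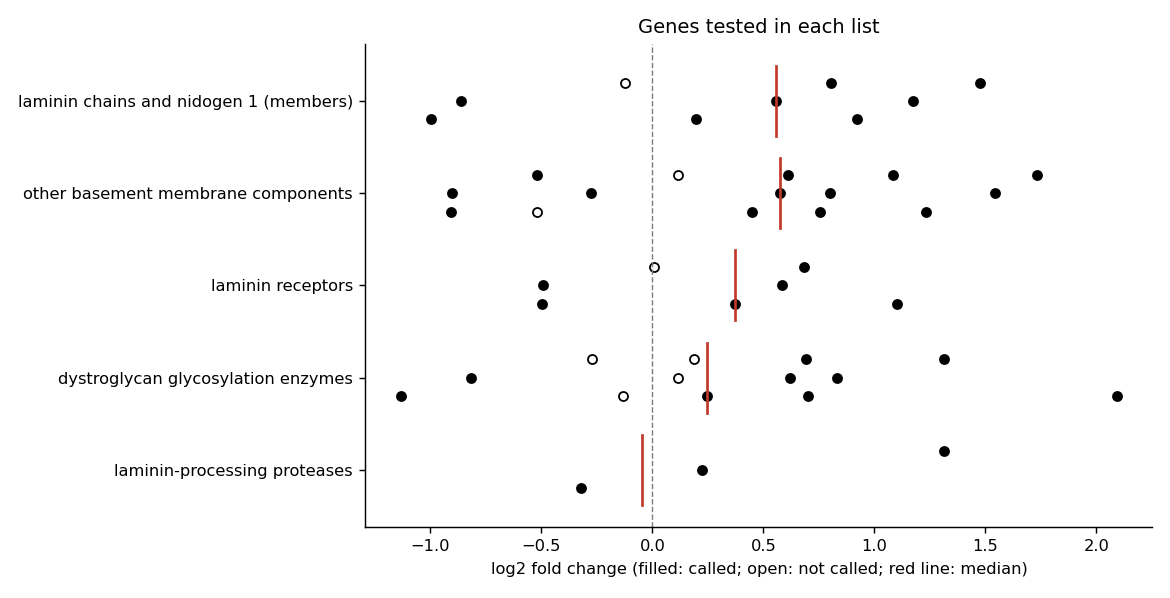
Log2 fold change of every gene tested in the 9 genes and in the other basement membrane, receptor, glycosylation and protease lists, with filled points called, open points not called and a line at the median of each list. Each list plotted holds points on both sides of zero, and CTSS is left out of the points of the protease list because its BNC2 siRNA libraries held at most 1 count. The median line of the protease list, at -0.05, still includes CTSS.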

How the data were processed

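The authors isolated poly(A) RNA, sequenced single-end reads and aligned them to hg19 with STAR 2.6.1d. The deposited values are raw counts of uniquely mapped reads per gene. In all 23346 genes the series table equals the reverse-strand column of the library tables, which leaves out reads of the other strand. All sample columns were matched (0 unmatched). Reads assigned to no gene (37.7% to 41.1% per library) were left out. Genes above 1 CPM in at least 3 libraries were tested with edgeR 4.0.16 (R 4.3.3, limma 3.58.1; TMM, quasi-likelihood test, no replicate block, Benjamini-Hochberg adjustment). A likelihood ratio test, named in the methods, and DESeq2 1.42.0 were alternatives, beside other scalings, filters, a replicate block, both strands and leaving out each library. The scripts were tested on simulated data. Positions and lengths come from GENCODE release 44 on GRCh37. A floor of 3 counts covers counting error only. Results of some single genes of the lists, left out of their counts, are not given. The 9 genes and the lists were chosen with earlier results of these data known. From a list, genes called with an absolute log2 fold change of at least 1 were named, with others where the counts were 5 or fewer.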

Additional observations from a re-analysis of the deposited data

How the results depend on the processing

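No fold change of the 9 genes reversed in the alternatives, and the number of genes called (8879 of 12186) stayed within 1.5 times in each, from 8084 without the second NC siRNA library to 9662 of 18121 without a filter on low counts. Scaling by total counts only moved the median of all genes tested to -0.07. With a replicate block 8400 genes were called, 6 of the 9 as up-regulated and 2 as down-regulated. The replicate numbers were not taken to pair the samples, since deviations of same-numbered libraries correlated at -0.21, -0.08 and -0.13. Shares per length moved more. The gain of LAMA2 among alpha chains, 1.86 percentage points on all exons, was 3.58 with the longest transcript, 3.30 without length correction, 3.66 on canonical transcripts and 3.64 with the short LAMA3 transcript. The gain of LAMB2 among beta chains, 25.3 points on all exons, was 32.1, 33.4, 32.5 and 32.5 points under the same lengths. The loss of LAMA3, -14.0 points, was -18.65 with its short transcript, which was added after seeing the data, as was the canonical length. These shifts follow from the lengths that divide the same counts. LAMA4, at 36 to 110 counts per library, was the gene most limited by depth, and LAMA2 followed at 87 to 173.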

Other observations

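Genes on the opposite strand are annotated at LAMA2 and at several of the other genes. The strand opposite to LAMA2 held 17, 17 and 15 reads with NC siRNA and 12, 14 and 3 reads with BNC2 siRNA. That was 14.8% and 5.74% of the reads of both strands. At the other 8 genes the opposite strand held at most 2.27% of the reads in either group.

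The genes whose profile over the 6 libraries lay closest to NID1, by Euclidean distance between log2 CPM values centred on each gene's mean, were AK4 (distance 0.110), SLFN13 (0.116) and DENND1B (0.117). Those closest to LAMB1 were RB1CC1 (0.0678), SRXN1 (0.0719) and KPNA2 (0.0724). The likeness is a description over 6 points that share their libraries.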
